A study of Mus musculus with 4 samples.

Results

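The genes described here are 10 axon guidance genes, listed by name with earlier results of these data known. They are the neuropilins *Nrp1* and *Nrp2*, the plexins *Plxna2* and *Plxna4*, the semaphorins *Sema3a*, *Sema3c* and *Sema6d*, the roundabout receptors *Robo1* and *Robo2*, and the netrin receptor family gene *Unc5d*. All 10 are among the 16600 genes of the table. They were followed across excitatory neurons, interneurons and progenitors of the fetal mouse cortex, and between genotypes. Single-cell RNA-Seq was performed on cortical cells of C57BL/6J fetuses at E18.5, sorted as CD24+ (a pan-neuronal surface marker) and CD45- (the hematopoietic marker). The 2 groups were *Setd5*+/+, given by the libraries WT3 and WT6, and *Setd5*+/-, given by the libraries Het5 and Het9, each library being 1 fetus. The labels name no treatment. *Setd5* encodes a chromatin regulator, and the *Setd5*+/- fetuses carried 1 mutant allele that holds a GFP cassette.

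Semaphorins are secreted or membrane-bound cues that steer growing axons and migrating neurons. The class 3 semaphorins bind neuropilins, which have a short cytoplasmic tail, and the signal is passed on by class A plexins, whereas the class 6 semaphorins bind plexins directly. Robo receptors respond to Slit proteins, and Unc5 receptors to netrins and to FLRT proteins. In the developing cortex these families guide the axons of projection neurons and sort tangentially migrating interneurons away from the striatum, and *Unc5d* is known as a gene of the subventricular zone and of upper layer neurons.

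The sequence upstream of the annotated start is shown for 3 members, 1 from each of the neuropilin, semaphorin and Robo families, since these 3 genes separated the neuron classes below by more than their spread over libraries. RefSeq windows (build GRCm38.p6) matched 8 of the 10 members, with 11 windows in all, and *Plxna4* and *Unc5d* had no entry. Each line gives the 250 bases before the RefSeq start, 5′ to 3′ on the strand of the gene. Capitals mark a match to CAGATG, an E-box that NeuroD and neurogenin factors can bind, searched on both strands. For *Sema3c* and *Nrp1* the RefSeq start lies past the GENCODE gene start given below. Their stretches thus lie inside the gene positions printed there.
*Sema3c*, chr5:17574566-17574815, plus strand: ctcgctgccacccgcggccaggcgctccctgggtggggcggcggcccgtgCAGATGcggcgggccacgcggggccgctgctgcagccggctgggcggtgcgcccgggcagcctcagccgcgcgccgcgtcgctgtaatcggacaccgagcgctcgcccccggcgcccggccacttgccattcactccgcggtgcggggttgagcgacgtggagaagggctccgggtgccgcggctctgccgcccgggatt
*Robo2*, chr16:74411826-74412075, minus strand: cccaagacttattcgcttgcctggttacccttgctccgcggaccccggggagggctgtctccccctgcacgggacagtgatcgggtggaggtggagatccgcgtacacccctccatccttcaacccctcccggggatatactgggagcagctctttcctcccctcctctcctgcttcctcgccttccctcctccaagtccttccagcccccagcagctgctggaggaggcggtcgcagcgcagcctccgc
*Nrp1*, chr8:128358823-128359072, plus strand: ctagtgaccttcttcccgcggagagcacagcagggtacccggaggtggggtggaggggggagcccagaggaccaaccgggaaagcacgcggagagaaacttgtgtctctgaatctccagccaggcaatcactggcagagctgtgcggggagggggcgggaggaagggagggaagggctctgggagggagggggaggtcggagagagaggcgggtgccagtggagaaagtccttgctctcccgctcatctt
The *Sema3c* window held 1 CAGATG. The *Nrp1* window, this *Robo2* window, 1 of 3 for that gene, and the other 8 held none. Of 32851 windows of 300 bases over the genome, 17.2% held CAGATG, against 1 of the 11 windows here. A match is a string of letters and not a bound site.

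The libraries held 1445 to 1954 cells and 8205330 to 11742956 unique molecular identifiers (UMIs, 1 for each captured transcript), with 5398 to 5997 UMIs in the median cell. A *Cd24a* UMI was present in 90.2% of the 6562 cells and a *Ptprc* (CD45) UMI in 1.25%, the latter mostly in 132 immune cell-like cells. In all, 224 cells, 56 in each library, carried barcodes found in all 4 libraries, and all were melanocyte-like or immune cell-like, so none entered the 4 classes used below. *Setd5* was 0.89 lower on the log2 scale in *Setd5*+/- libraries over all cells (SE 0.0752, adjusted p = 0.00696, limma), with 1.18 and 1.07 counts per 10000 UMIs against 0.540 and 0.586; reads from the 3′ end do not check whether a part upstream is lost. Genotype and fetal sex coincided: *Xist*, which is expressed from the inactive X chromosome, was at 20.6 and 21.5 counts per 10000 UMIs in WT3 and WT6 and at 0.152 and 0.310 in Het5 and Het9, and the Y-linked *Eif2s3y* was at 0 in both *Setd5*+/+ libraries and at 0.573 and 0.670 in the others. None of the 10 members lies on a sex chromosome, but any genotype difference below cannot be told apart from one between sexes.

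Cells were grouped into 14 clusters without the guidance genes, so that the members did not choose their own cells. Excitatory neuron-like cells (clusters 0, 1 and 10) numbered 2475, interneuron-like cells (cluster 4) 579, intermediate progenitor-like cells (cluster 8) 332 and radial glia-like cells (cluster 3) 716. Cluster 0 had *Cntn2* and *Hs6st2* among its leading genes, cluster 1 was led by *Cxcl12* and *Nrn1* with *Eomes* among its markers, and cluster 10 by *Tfap2d* and *Thsd7a*. The classes were named from marker lists, so the levels of those markers describe them and test nothing. The summed level of 8 excitatory markers was 29.0 to 32.4 counts per 10000 UMIs in the excitatory neuron-like cells of the 4 libraries and 0.492 to 0.918 in interneuron-like cells, and 13 interneuron markers summed to 57.4 to 65.9 in interneuron-like cells against 0.804 to 1.18 in excitatory neuron-like cells. Intermediate progenitor-like cells had 44.4 to 53.1 of 8 intermediate progenitor markers and also 24.4 to 27.9 of 16 radial glia markers, which were at 131.4 to 147.3 in radial glia-like cells. In a droplet assay low levels of a gene in other cell types can come from free RNA. Levels are mean counts per 10000 UMIs over the cells of a library, and are compared between cells for 1 gene at a time, not between genes.

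Of the 4 classes, excitatory neuron-like cells carried the most of these genes per cell. With every cell thinned to 3000 UMIs, an excitatory neuron-like cell had UMIs of 3.11 ± 0.138 of the 10 members (SD over libraries, n = 4), an interneuron-like cell of 0.914 ± 0.120, an intermediate progenitor-like cell of 0.655 ± 0.0524 and a radial glia-like cell of 0.365 ± 0.0194. None of the 10 was detected in 3.60% of excitatory neuron-like cells, 38.0% of interneuron-like cells, 47.5% of intermediate progenitor-like cells and 69.8% of radial glia-like cells. Thinning left out 526 cells with fewer UMIs.

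**Figure D1:**
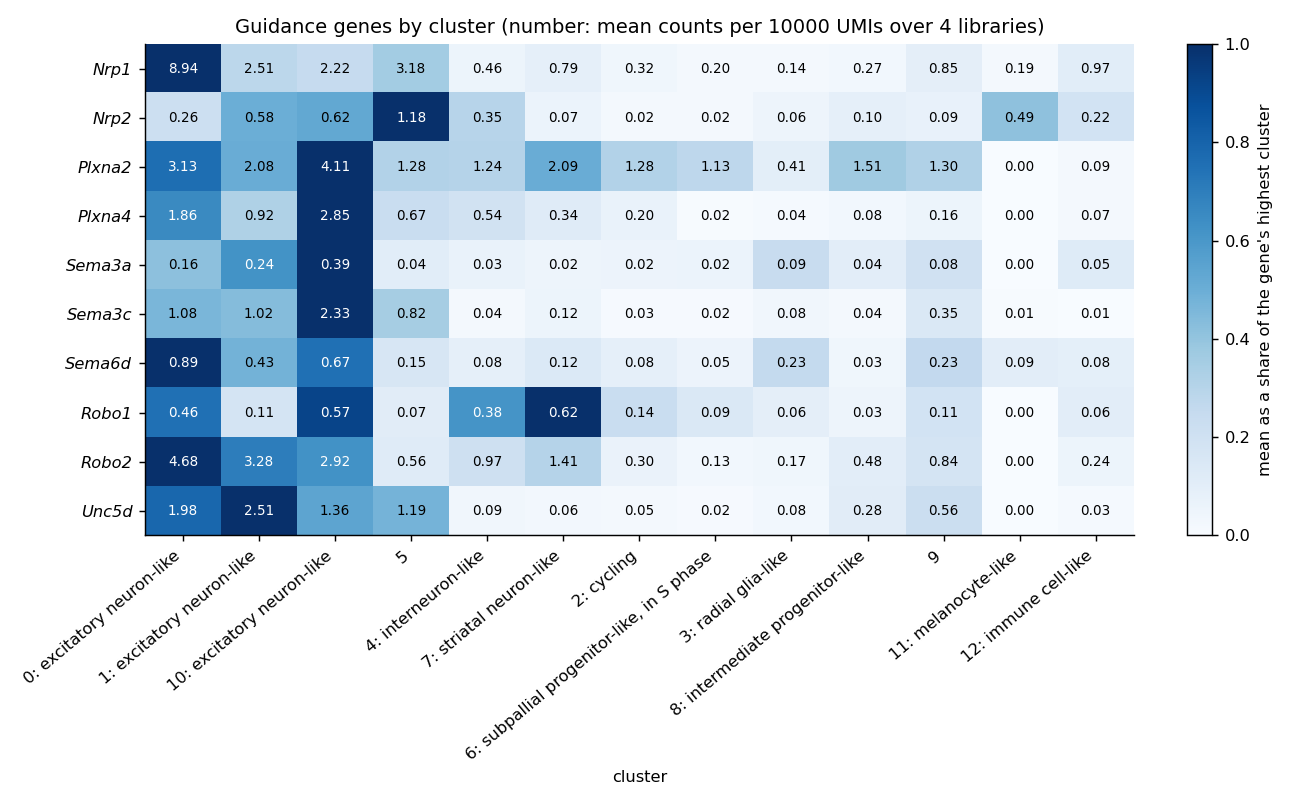
Mean level of each of the 10 guidance genes (rows) in each cluster (columns), with the colour scaled to the highest cluster of each gene and the level in counts per 10000 UMIs written in each cell. The highest levels of *Nrp1* (8.94), *Sema6d* (0.892) and *Robo2* (4.68) lie in cluster 0, that of *Unc5d* (2.51) in cluster 1 and those of *Plxna2* (4.11), *Plxna4* (2.85), *Sema3a* (0.392) and *Sema3c* (2.33) in cluster 10.

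*Nrp1* (chromosome 8, 128358604 to 128503363, plus strand, GENCODE M21 on GRCm38, as for all positions that follow), the receptor for Sema3A that also binds VEGF-A, was a gene of excitatory neurons in these cells. Its level in excitatory neuron-like cells was 5.50 in WT3, 5.43 in WT6, 6.22 in Het5 and 5.96 in Het9. Interneuron-like cells of the same libraries had 0.568, 0.660, 0.419 and 0.195, intermediate progenitor-like cells 0.269, 0.420, 0.158 and 0.221, and radial glia-like cells 0.193, 0.136, 0.122 and 0.116. Each excitatory value lay above every value of the other 3 classes. Within the excitatory class the level was uneven: cluster 0 was at 8.94 ± 0.582 (SD, n = 4), above cluster 1 at 2.51 ± 0.295 and cluster 10 at 2.22 ± 0.781, and the ranges of clusters 1 and 10 overlapped with each other and with cluster 5 (3.18), an unnamed cluster led by *Tac2* and *Lhx9*. Cluster 5 (489 cells) had 3 of the 8 excitatory markers, as many as clusters 1 and 10, and was not counted as excitatory neuron-like; with it added, in a setting chosen after seeing the data, no member gained or lost a call in any comparison that uses this class.

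*Nrp2* (chromosome 1, 62703285 to 62818695, plus strand), the receptor that prefers Sema3F, had another pattern. Its level in excitatory neuron-like cells was 0.445, 0.549, 0.339 and 0.357 in WT3, WT6, Het5 and Het9, and in interneuron-like cells 0.478, 0.667, 0.242 and 0. These ranges overlapped, whereas intermediate progenitor-like cells (0.103 ± 0.0281) and radial glia-like cells (0.0587 ± 0.0406) were lower than excitatory neuron-like cells in all 4 libraries. Cluster 5 had the highest mean (1.18 ± 0.166), and its range overlapped with that of cluster 10 (0.620 ± 0.263). Cluster 0, the highest for *Nrp1*, was at only 0.256 ± 0.0802 for *Nrp2*.

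The plexins were present in both neuron classes. *Plxna2* (chromosome 1, 194618218 to 194816869, plus strand), a plexin for class 3 and class 6 semaphorins, was at 2.75 ± 0.168 in excitatory neuron-like cells, 1.24 ± 0.0937 in interneuron-like cells, 1.51 ± 0.183 in intermediate progenitor-like cells and 0.414 ± 0.0372 in radial glia-like cells. It was not limited to neurons, with a UMI in 55.5% of intermediate progenitor-like cells and 21.5% of radial glia-like cells, but it was at 0 in the melanocyte-like cells of cluster 11. Its order of clusters began with cluster 10 (4.11 ± 0.354), above cluster 0 (3.13 ± 0.249), which was above the striatal neuron-like cluster 7 (2.09 ± 0.266). *Plxna4* (chromosome 6, 32144268 to 32588192, minus strand), the main plexin partner of neuropilins in Sema3A signaling, was at 1.53, 1.49, 1.46 and 1.61 in excitatory neuron-like cells and at 0.543, 0.658, 0.506 and 0.472 in interneuron-like cells of WT3, WT6, Het5 and Het9. The classes did not overlap, and intermediate progenitor-like cells (0.0830 ± 0.0315) and radial glia-like cells (0.0363 ± 0.0208) were lower still. *Plxna4* overlaps 2 opposite-strand genes that are also in the table, *Plxna4os1* and *Plxna4os2*, and the strand setting of the counting is not given in the sources used here.

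Among the semaphorins, *Sema3c* (chromosome 5, 17574281 to 17730268, plus strand), a secreted cue that can attract cortical axons, was at 1.11, 1.09, 1.14 and 1.19 in excitatory neuron-like cells. Interneuron-like cells of the 4 libraries gave 13 UMIs in all, at 0.0631, 0.0260, 0 and 0.0626. Every excitatory value lay far above these, and cluster 10 (2.33 ± 0.375) was above clusters 0 (1.08 ± 0.0447) and 1 (1.02 ± 0.148), which overlapped. *Sema3a* (chromosome 5, 13125414 to 13602565, plus strand), the canonical repellent of cortical axons, was low everywhere, with 264 UMIs in excitatory neuron-like cells (0.203, 0.217, 0.195 and 0.234) and 4 in interneuron-like cells (0, 0.00775, 0 and 0.102). It was in a separated order from cluster 10 (0.392 ± 0.0880) to cluster 1 (0.243 ± 0.0214) and cluster 0 (0.164 ± 0.0191), and radial glia-like cells had 0.0937 ± 0.0361. The transmembrane *Sema6d* (chromosome 2, 124089969 to 124667770, plus strand) was at 0.678 ± 0.0282 in excitatory neuron-like cells and had a higher mean in radial glia-like cells (0.228 ± 0.0942) than in interneuron-like (0.0767 ± 0.0276) and intermediate progenitor-like cells (0.0345 ± 0.0256).

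The 2 Robo genes, both Slit receptors and both on chromosome 16, were distributed differently. *Robo2* (73891839 to 74411825, minus strand) was at 3.60, 3.81, 4.26 and 4.19 in excitatory neuron-like cells of WT3, WT6, Het5 and Het9 and at 0.873, 1.02, 0.984 and 1.01 in interneuron-like cells. Intermediate progenitor-like cells had 0.477 ± 0.18 and radial glia-like cells 0.169 ± 0.0685, so that the excitatory class did not overlap with any other. *Robo1* (72308306 to 73046095, plus strand) was at 0.286, 0.3, 0.348 and 0.332 in excitatory neuron-like cells and at 0.480, 0.414, 0.419 and 0.201 in interneuron-like cells, which overlap, and at 0.0579 ± 0.0141 in radial glia-like cells. Within the excitatory class *Robo1* was at 0.464 ± 0.0341 in cluster 0 and 0.107 ± 0.0304 in cluster 1, and the striatal neuron-like cluster 7 (0.615 ± 0.199), cluster 10 (0.566 ± 0.160), cluster 0 and the interneuron-like cells formed a chain of overlapping ranges at the top.

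*Unc5d* (chromosome 8, 28646717 to 29219636, minus strand), a receptor of netrins and FLRT proteins, was at 2.22, 1.88, 2.23 and 2.32 in excitatory neuron-like cells and at 0.121, 0.0509, 0.0222 and 0.155 in interneuron-like cells. It was the only member of the 10 whose highest cluster was cluster 1 (2.51 ± 0.305), with cluster 0 next (1.98 ± 0.233) and separated from it. Intermediate progenitor-like cells (0.280 ± 0.0352) were above interneuron-like and radial glia-like cells (0.0782 ± 0.0196) in all 4 libraries.

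**Figure D2:**
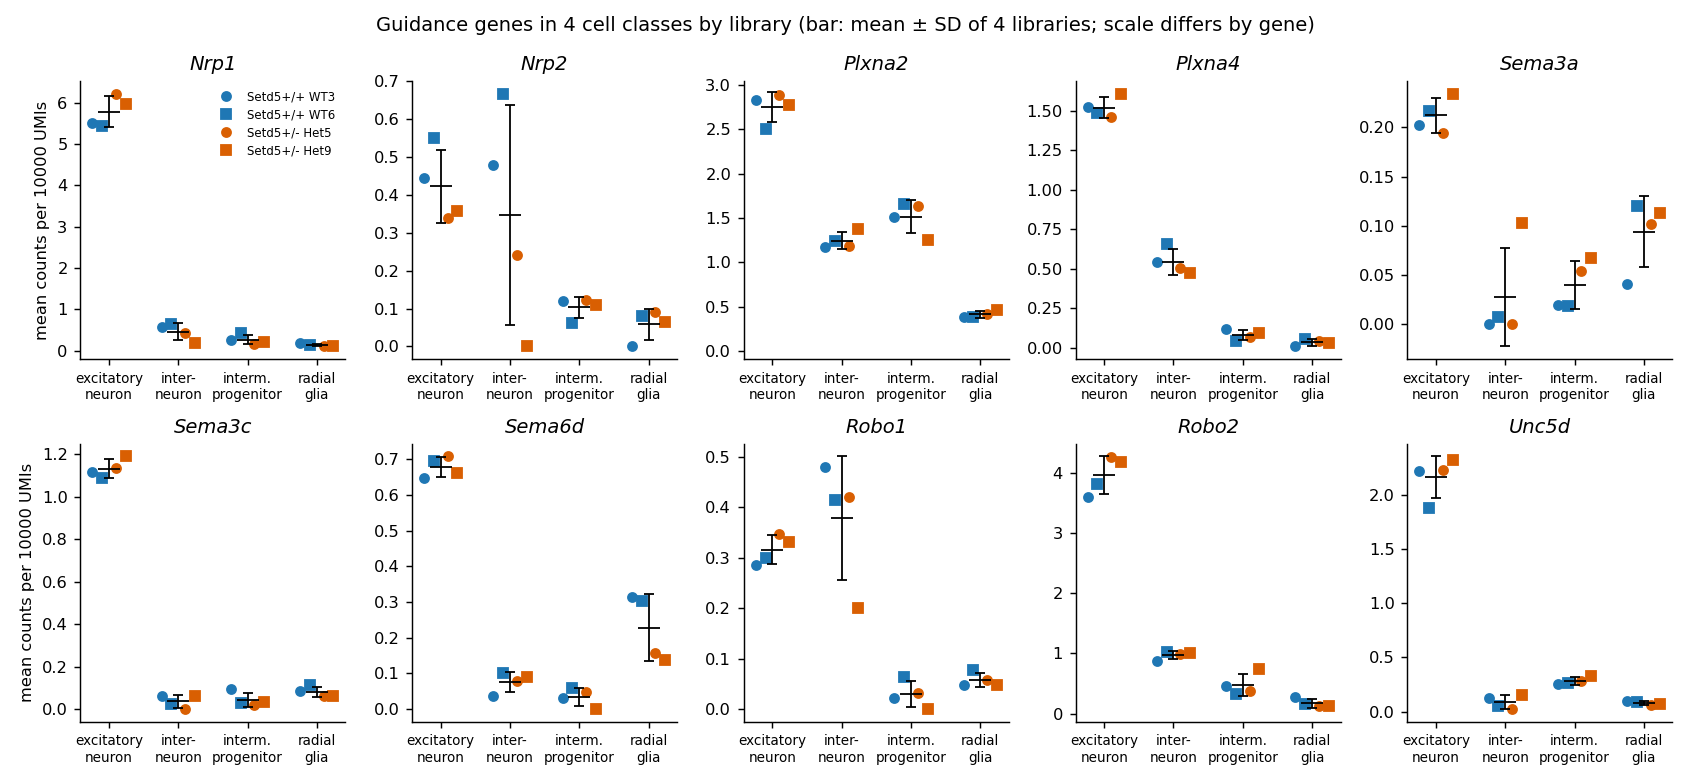
Level of each guidance gene (counts per 10000 UMIs, each panel with its own linear axis) in the 4 cell classes; each point is 1 library, coloured by genotype, and the bar is the mean with its SD over 4 libraries. The excitatory points lie above those of the other classes for every gene shown except *Nrp2* and *Robo1*, whose excitatory and interneuron points overlap.

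Tested over the 4 libraries with limma on log2(level + 0.1), 7 of the 9 members with a mean of at least 0.1 over the classes were higher in excitatory neuron-like than in interneuron-like cells and 0 were lower, against 13.5% of 8093 genes higher and 21.9% past the threshold in either direction. *Sema3a* was under the minimum. *Sema3c* reached it only through the excitatory neuron-like cells. It was at 0.0379 in interneuron-like, 0.0430 in intermediate progenitor-like and 0.0797 in radial glia-like cells. Its higher excitatory level was thus a condition of its being tested, here and against both progenitor-like classes. The members were chosen with earlier results of these data known, so counts of them describe this list only. The largest of the 7 differences were those of *Unc5d* (log2 difference 3.65, SE 0.173, adjusted p = 3.37e-16), *Nrp1* (3.47, SE 0.18, adjusted p = 2.83e-15) and *Sema3c* (3.19, SE 0.176, adjusted p = 1.22e-14). *Sema6d* (2.15), *Robo2* (1.92), *Plxna4* (1.34) and *Plxna2* (1.08) followed. Over the alternatives *Unc5d* ran from 1.54 to 4.75, *Nrp1* from 2.22 to 4.10 and *Sema3c* from 1.04 to 4.94, so their order depends on the setting. The members that did not pass were *Nrp2*, at 0.56 (95% interval -0.11 to 1.23, adjusted p = 0.254), and *Robo1*, at -0.16 (-0.53 to 0.21, adjusted p = 0.597). Both depended on the classes: *Nrp2* passed with marker gates (1.51) and at a lower resolution (0.97) and was at -0.0040 with cluster 0 alone, while *Robo1* passed as lower at a lower resolution (-0.63) and was at 0.30 with marker gates and 0.28 with cluster 0 alone. The lower resolution drew wider classes, with 3261 excitatory neuron-like and 957 interneuron-like cells against 2475 and 579 in the main setting.

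Against radial glia-like cells all 9 tested members were higher in excitatory neuron-like cells, where 27% of genes were higher and 54.6% passed in either direction. The differences ran from 1.29 for *Sema6d* (adjusted p = 1.08e-06) to 4.61 for *Nrp1* (adjusted p = 1.33e-18), with *Robo2* at 3.95. Against intermediate progenitor-like cells all 9 were again higher, where 24.7% of genes were higher and 41.4% passed in either direction. They ran from 0.83 for *Plxna2* (adjusted p = 1.40e-07) to 4.05 for *Nrp1* (adjusted p = 1.03e-16), and *Nrp2* was at 1.36 (adjusted p = 0.00128), a call that was lost with a pseudocount of 0.01 (adjusted p = 0.0658) and with marker gates (0.51, adjusted p = 0.148). These comparisons share the same excitatory neuron-like values. The median difference over the 9 members was 1.92 against interneuron-like, 2.79 against radial glia-like and 2.57 against intermediate progenitor-like cells, where the median over all genes was 0.03, -0.00 and 0.08.

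Interneuron-like cells against radial glia-like cells gave a mixed result, with 6 members higher and 1 lower, where 26.8% of genes were higher and 31.9% lower (58.6% in all). *Plxna4* (2.25), *Robo2* (2.02), *Robo1* (1.56), *Plxna2* (1.39), *Nrp2* (1.19) and *Nrp1* (1.14) were higher, with adjusted p from 2.18e-12 to 0.00274. *Nrp2* had the highest adjusted p of these, and its ranges overlapped, since the interneuron-like cells of Het9 had no *Nrp2* UMI; without WT3 its difference was 0.74 (adjusted p = 0.103), at a lower clustering resolution 0.11 (adjusted p = 0.685) and with a pseudocount of 0.01 its adjusted p = 0.0773, so the call was lost in all 3 settings. *Sema6d* was lower (-0.86, SE 0.187, adjusted p = 0.000258). *Sema3c* (-0.40, adjusted p = 0.052) and *Unc5d* (0.02, 95% interval -0.34 to 0.37) did not pass, but *Sema3c* passed under 7 of 15 alternatives, at -0.41 to -1.23.

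**Figure D3:**
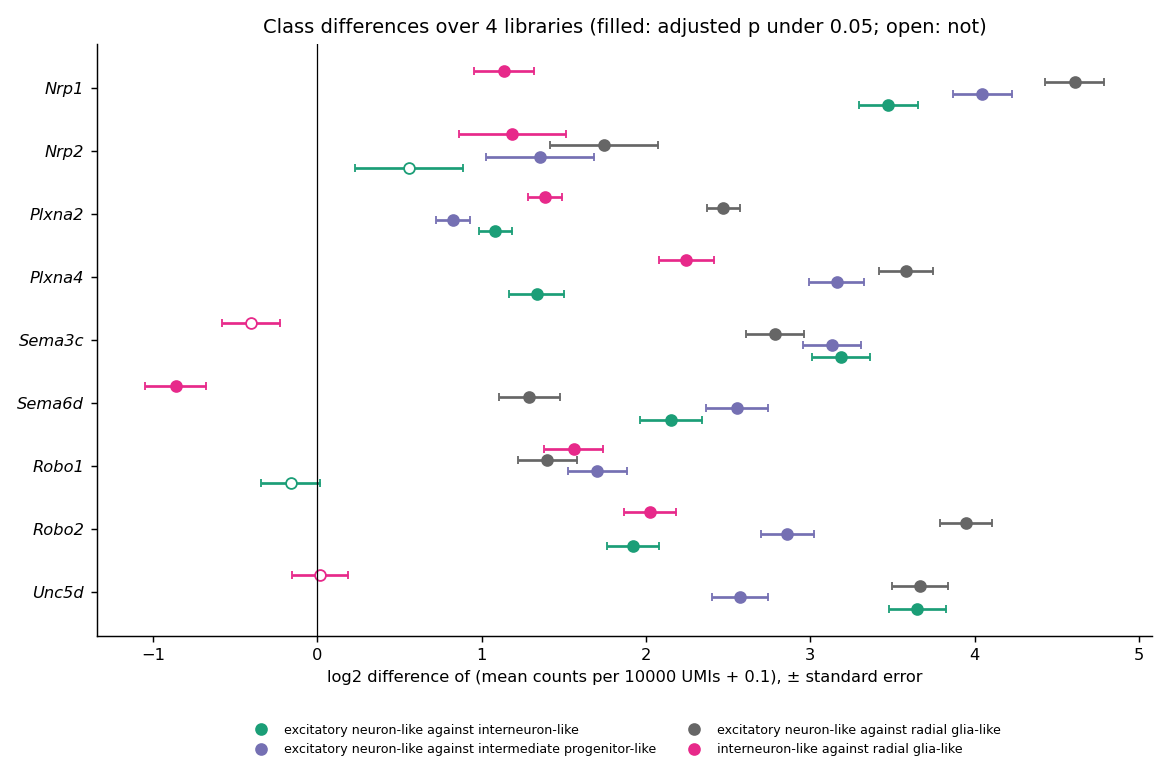
Log2 differences between classes (horizontal axis, log2 of level + 0.1, with standard errors over 4 libraries) for the 9 tested guidance genes; each colour is 1 comparison, and filled points have an adjusted p under 0.05. The open points are *Nrp2* and *Robo1* for excitatory against interneuron-like cells and *Sema3c* and *Unc5d* for interneuron-like against radial glia-like cells.

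Of 48 further ligands and receptors in the table (other semaphorins, plexins, Slits, netrins, Dcc and Unc5 receptors, FLRT proteins and L1-type adhesion proteins), 23 could be tested. In excitatory neuron-like against interneuron-like cells, 8 were higher, 4 lower and 11 did not pass, where 13.5% of all genes were higher and 21.9% passed in either direction. Of 34 effectors (among them collapsin response mediators, Cdk5 regulators and actin adaptors), 29 could be tested, with 3 higher, 7 lower and 19 that did not pass. The median log2 difference was 0.05 for the ligands and receptors, -0.14 for the effectors and 0.03 for all genes. Against radial glia-like cells the counts were 11 higher, 7 lower and 5 not past for the ligands and receptors (median 0.11) and 15, 7 and 7 for the effectors (median 0.47), where 27% of all genes were higher and 54.6% passed. Against intermediate progenitor-like cells they were 11, 4 and 8 (median 0.53), and 15, 6 and 8 (median 0.40), where 24.7% of all genes were higher, 41.4% passed and the median was 0.08.

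Of the genes in these lists past the threshold, *Cntn2*, an adhesion protein of growing axons, had the largest difference in each of these 3 comparisons. It was at 2.1 ± 0.264 in excitatory neuron-like cells against 0.160 ± 0.0351 in interneuron-like, 0.0566 ± 0.0305 in radial glia-like and 0.0183 ± 0.0266 in intermediate progenitor-like cells (log2 differences 3.08, 3.82 and 4.23). *Chl1*, an L1-type adhesion protein, was 2.44 higher than in interneuron-like cells and *Flrt1*, whose family members bind Unc5 receptors, 2.15 higher. *Sema5a*, a transmembrane semaphorin, was 1.79 higher than in interneuron-like cells, and *Dpysl4*, a collapsin response mediator, was 2.04 lower on the log2 scale in excitatory neuron-like (0.172 ± 0.0350) than in interneuron-like cells (1.02 ± 0.0609). Against radial glia-like cells, *Crmp1* (3.34), *Cdk5r1* (3.12), *Rnd2* (3.09) and *L1cam* (3.07) followed *Cntn2*. Interneuron-like cells against radial glia-like cells gave 9 higher, 9 lower and 5 not past among the ligands and receptors, and 16, 4 and 9 among the effectors, where 26.8% of all genes were higher and 31.9% lower, led by *Cdk5r1* (3.85), *Crmp1* (3.60), *Dpysl3* (3.01), *Sema5a* (-2.25) and *Sema6c* (2.17).

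Within the excitatory neuron-like cells, members were compared between cells with and without a UMI of *Eomes*, the factor of intermediate progenitors and of neurons newly made from them, in a split chosen after the data were seen. Of the 845 cells with *Eomes*, 795 lay in cluster 1, and of the 1630 without, 1234 lay in cluster 0, so the split largely follows the clusters. Cells with an *Eomes* UMI had 2.03 *Nrp1* against 7.70 in the cells without. *Plxna2* (1.91 and 3.18), *Plxna4* (0.779 and 1.91), *Sema3c* (0.879 and 1.27), *Sema6d* (0.314 and 0.871), *Robo1* (0.116 and 0.421) and *Robo2* (3.19 and 4.37) were also lower in the *Eomes* cells without overlap between libraries. *Nrp2* was higher (0.574 and 0.340), so 8 of 10 members were separated, where 33.3% of all genes were. *Sema3a* overlapped, but within each library it was higher in the *Eomes* cells (0.261 and 0.187, 4 of 4 libraries), as *Nrp2* was. *Unc5d* (2.26 and 2.11) was higher in 3 of 4, but the *Eomes* cells lay below the *Unc5d* level of cluster 1 as a whole (2.51), where most of them lie. Inside cluster 1, *Nrp1* was at 1.83 with *Eomes* and 4.59 without, again with no overlap, while *Nrp2* was at 0.584 and 0.595, and *Robo2*, at 3.16 and 3.66, overlapped.

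Members were also read together in single cells, after thinning to 3000 UMIs. In cluster 0, 27.9% of cells with an *Nrp1* UMI had a *Sema3c* UMI against 12% of those without, higher in 4 of 4 libraries. Of its 1186 cells, 1019 had an *Nrp1* UMI, so few were without. The *Sema3c* shares were 27.5% against 17.0% in cluster 1 and 29.5% against 9.18% in cluster 5, each higher in 4 of 4. Cluster 10 (126 cells) went the other way, at 28.8% against 44.5%, higher in 0 of 4. The share with an *Nrp2* UMI was 5.56% against 9.92% in cluster 0, higher in 0 of 4, and 16.4% against 13.2% in cluster 1, higher in 4 of 4 but by about 1 percentage point in WT3 and Het9. In clusters 5 and 10 it was higher in 2 of 4, and differences between clusters were not tested. In cluster 0 *Unc5d* was found in 41.5% of the cells with *Robo2* and 33.3% of those without, higher in 4 of 4. In cluster 1, 26.9% of *Nrp1* cells and 17.8% of the others had a *Plxna4* UMI, higher in 4 of 4, while in cluster 0 the shares were 38.3% and 38.5%, higher in 2 of 4. Cells of a cluster share libraries and differ in maturity, so these shares describe the cells and test nothing.

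Over the 13 clusters with enough cells in each library, the genes of most similar pattern were named by the Pearson correlation of log2 levels, as a description over clusters that share libraries and depth. *Nrp1* was closest to *Chl1* (0.93), *Fam49a* (0.93) and *Cntn2* (0.92), and *Nrp2* to *mt-Co1* (0.87), *Dusp4* (0.85) and *Fbxl17* (0.83). *Plxna2* was closest to *Pde7a*, *Rtf1* and *Rab11b* (0.97 to 0.98), *Plxna4* to *Elmod1*, *Pclo* and *Myt1l* (0.95 to 0.96) and *Sema3c* to *Gm16152*, *Tbr1* and *Prdm8* (each 0.96). *Unc5d* was closest to *Cacna2d1* (0.98), *A930024E05Rik* and *Serpini1*, and *Robo2* to *Gng3* (0.95), *Asxl3* and *Tmem108*. *Robo1* was closest to *B230334C09Rik*, *Syt16* and *Osbpl2* (0.95 to 0.96), *Sema3a* to *Trim9*, *2600014E21Rik* and *Cdh10* (0.90 to 0.94), and *Sema6d* to *2600014E21Rik*, *Trim9* and *Keap1* (0.89 to 0.91). Between members, the highest values were *Sema3c* with *Unc5d* (0.93) and *Plxna4* with *Robo2* (0.90), and the lowest *Nrp2* with *Plxna2* (0.01) and with *Robo1* (0.03).

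Whether these genes differed between genotypes was asked over the 2 *Setd5*+/- and 2 *Setd5*+/+ libraries. The limma test with Benjamini-Hochberg adjustment over all genes called 0 of the 10 members in all cells, where it called 7 of 8137 genes (0.086%), and 0 of 10 in excitatory neuron-like cells, where it called 10 of 7758 (0.129%). It called 0 of the 6 members tested in interneuron-like cells (0.13% of all genes), 0 of 5 in intermediate progenitor-like cells (0.148%) and 0 of 4 in radial glia-like cells (0.194%). At an unadjusted p under 0.05 there were 3 members in all cells, 3 in excitatory neuron-like, 2 in interneuron-like, 0 in intermediate progenitor-like and 1 in radial glia-like cells, where 4.34%, 4.96%, 5.93%, 4.47% and 4.79% of all genes had such a p. The libraries of the genotypes did not overlap for 5, 6, 3, 2 and 4 of these members, where 32%, 34.3%, 35.2%, 31.5% and 33.7% of all genes did not. No further ligand, receptor or effector passed the test in any class. Of the ligands and receptors, 3 of 24 had an unadjusted p under 0.05 in excitatory neuron-like cells, *Chl1* (0.38, SE 0.0783, adjusted p = 0.244), *Cntn2* (0.29) and *Plxna3* (0.29). There were 3 of 22 in interneuron-like cells, *Plxnb2* (0.95), *Sema4c* (0.92) and *Sema6a* (-0.89), 0 of 15 in intermediate progenitor-like cells and 3 of 18 in radial glia-like cells, *Vegfa* (0.64), *Sema6a* (-0.63) and *Flrt3* (-0.51). Of the effectors there were 1 of 28 in interneuron-like cells (*Srgap2*, 0.68), 1 of 27 in intermediate progenitor-like cells (*Arhgef12*, -0.64) and 0 in the other 2 classes.

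In excitatory neuron-like cells the genotype differences of the members were small. *Nrp1* was 0.15 higher on the log2 scale in *Setd5*+/- libraries (SE 0.0542, adjusted p = 0.916, limma), *Robo2* 0.18 higher (SE 0.0591, adjusted p = 0.916) and *Nrp2* 0.41 lower (SE 0.114, adjusted p = 0.826), none of which passed. The share of excitatory neuron-like cells that lie in cluster 0, where *Nrp1* is highest, was 50% in WT3, 45.9% in WT6, 52.2% in Het5 and 55.8% in Het9. With the 3 excitatory clusters weighted alike, a setting added after seeing the data, the *Nrp1* difference was 0.15 and that of *Robo2* 0.14. *Plxna4* (0.02), *Sema3a* (0.02) and *Sema6d* (0.03) lay nearest to 0, with standard errors of 0.0764, 0.124 and 0.0917. In radial glia-like cells *Sema6d* was at 0.315 and 0.303 in *Setd5*+/+ and 0.158 and 0.137 in *Setd5*+/- libraries (log2 difference -0.73, SE 0.210, adjusted p = 0.799). Markers of the oligodendrocyte lineage summed to 1.15 and 1.43 against 0.425 and 0.373 in these cells, and erythroid markers to 7.74 and 5.78 against 24.2 and 19.1; their part in the *Sema6d* values was not tested.

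Among the 6 members tested in interneuron-like cells, the neuropilins had the largest fitted genotype differences, and neither passed the test. *Nrp2* was at 0.478 in WT3 and 0.667 in WT6, at 0.242 in Het5 and at 0 in Het9, and *Nrp1* at 0.568, 0.660, 0.419 and 0.195. Both *Setd5*+/- libraries thus lay below both *Setd5*+/+ libraries for either gene. The log2 difference was -1.85 for *Nrp2* (SE 0.435, adjusted p = 0.167, limma) and -0.87 for *Nrp1* (SE 0.297, adjusted p = 0.737). With Het9 at 0, the *Nrp2* value depends on the pseudocount of 0.1: it was -3.52 with 0.01 and -0.49 with 1. A difference in the genotype effect between excitatory and interneuron-like cells was tested directly: 0 members passed, where 0.128% of 7836 genes did, with *Nrp1* at 1.02 (SE 0.216, adjusted p = 0.0744, limma) and *Nrp2* at 1.44 (SE 0.417, adjusted p = 0.465), the 2 members of 10 with an unadjusted p under 0.05, where 5.49% of all genes had one. The calls changed with single libraries, where the 1 library left in an arm is assumed to vary like the other group: without WT3 *Nrp2* passed in interneuron-like cells (-2.05, adjusted p = 0.0133) and *Nrp1* passed for the difference between classes (1.12), and without Het5 both genes passed in both tests, at -2.74 and -1.27 in interneuron-like cells and 2.36 and 1.40 for the difference. Without Het9 neither passed in either test, at -0.96 (adjusted p = 0.126) and -0.46 (adjusted p = 0.713) in interneuron-like cells and 0.53 and 0.64 for the difference. With all 4 libraries, *Nrp1* passed for the difference between classes under 5 of 15 alternatives, after thinning to 3000 UMIs (adjusted p = 0.0288), at a lower clustering resolution, with the guidance genes kept in the clustering, with marker gates and without the *Zic1* cells. Under the other 10 its adjusted p ran from 0.0589 to 0.913.

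The libraries behind these values rested on few cells. An *Nrp2* UMI was found in 21 of 136 interneuron-like cells of WT3 (15.4%, exact 95% binomial interval 9.82 to 22.6), 42 of 234 of WT6 (17.9%, 13.3 to 23.5), 8 of 121 of Het5 (6.61%, 2.90 to 12.6) and 0 of 88 of Het9 (exact interval 0 to 4.11), where 3 counts, taken as the limit that a count of 0 allows, are 3.41%. This limits the cells with a UMI, not the cells that express the gene. For *Nrp1* the shares were 15.4% in WT3, 19.2% in WT6, 9.92% in Het5 and 6.82% in Het9. The median UMIs per interneuron-like cell in these libraries were 4161.5, 4105.5, 3836 and 3442.5. In radial glia-like cells, a low reference with a median of 6892.5 UMIs, 7.12% of cells had an *Nrp1* and 3.63% an *Nrp2* UMI, shares that are not comparable with those of the shallower interneuron-like cells. Per 10000 UMIs, radial glia-like cells of WT3, WT6, Het5 and Het9 held 0.193, 0.136, 0.122 and 0.116 *Nrp1* and 0, 0.0797, 0.0908 and 0.0644 *Nrp2*, each below the interneuron-like level of the same library except *Nrp2* in Het9. These intervals cover counting error only.

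The makeup of the interneuron-like cells also differed between the libraries. A UMI of *Zic1*, a factor of septal and ventral forebrain neurons, was found in 33.1% of them in WT3, 34.6% in WT6, 20.7% in Het5 and 4.55% in Het9, and 6 striatal neuron markers summed to 2.25, 2.26, 1.22 and 0.320. *Lhx6*, the factor of interneurons from the medial ganglionic eminence, was found in 36.8%, 31.6%, 38.8% and 34.1%, and *Nr2f2*, a marker of interneurons from the caudal eminence, in 20.6%, 22.6%, 26.4% and 42.0%. In cells with *Zic1*, *Nrp2* was at 1.10 (45 cells), 1.29 (81), 0.841 (25) and 0 (4 cells), and in cells without it at 0.173, 0.335, 0.0854 and 0. *Nrp1* in cells with *Zic1* was at 0.959, 1.22, 1.68 and 1.25, with both *Setd5*+/- values above both *Setd5*+/+ values and the Het9 value resting on 1 UMI. In cells without *Zic1* it was at 0.375, 0.362, 0.0914 and 0.145, the other way round. The fitted differences in cells without *Zic1* were -1.11 for *Nrp1* and -1.34 for *Nrp2* (adjusted p = 0.998 for both, limma). In the cells with *Lhx6* alone *Nrp1* was at 0.288, 0.531, 0.142 and 0.393, with overlapping genotypes, and *Nrp2* at 0.358, 0.291, 0.174 and 0, without overlap (differences of -0.52 and -1.35, adjusted p = 0.967 for both, limma). Both settings were added after seeing the data.

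**Figure D4:**
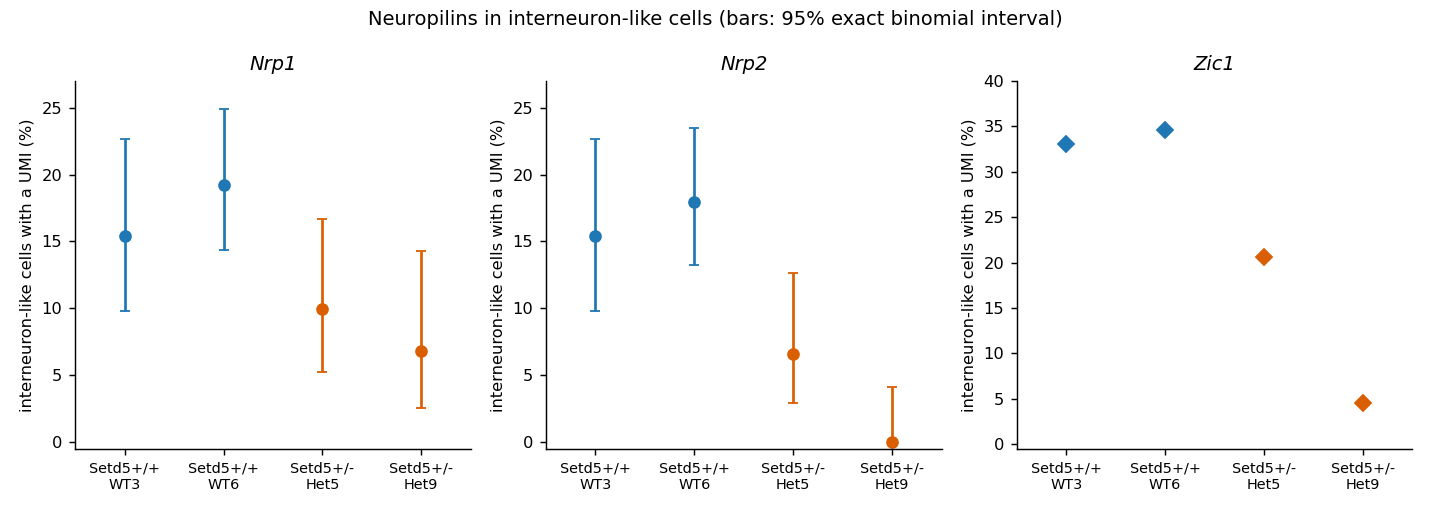
Share of interneuron-like cells (percent, vertical axis) with a UMI of *Nrp1*, *Nrp2* or *Zic1* in each library, by genotype; bars in the neuropilin panels are exact 95% binomial intervals. The Het5 and Het9 points lie below those of WT3 and WT6 in all 3 panels, with *Nrp2* at 0 and *Zic1* at 4.55% in Het9.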

How the data were processed

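Single-cell libraries (10x 3′ chemistry) were made by the authors from 2 fetuses of each genotype. Cell Ranger 2.1 and Seurat 2.3.0, with mm10 as the build, are the tools named in the notes the submitters gave on processing. The deposited values are natural logs of 1 + counts per 10000 UMIs, made by the authors for each cell, and 100% of 14848520 non-zero values gave back whole UMIs (tolerance 0.001). Since the deposited unit is a log value, the main test was made on log levels. The genotype of each library was read from its prefix in the barcodes, which carries no replicate number of the sample labels.

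Cells were clustered with scanpy 1.11.5 (Leiden resolution 0.4, 2000 variable genes, 20 components, 20 neighbors) without 92 guidance genes and *Setd5*. Classes were named from marker lists. Doublet calls marked 64 cells (0.975%), which were kept and left out in an alternative. Counts per 10000 UMIs were averaged over the cells of a class in each library and log2(mean + 0.1) was tested with limma 3.58.1 in R 4.3.3 (trend, two-sided), adjusted by Benjamini-Hochberg over genes with a mean of at least 0.1, with a threshold of 0.05. Class contrasts had library as a term, genotype contrasts compared 2 against 2 libraries, and a difference between 2 classes in the genotype effect was tested on their per-library difference. The classes were drawn from the same cells by other genes, so p-values between classes also carry that choice, and counts of members are read against all genes. Only the 2 against 2 genotype fit was run on simulated libraries, with a fixed spread between libraries. The class contrasts and the difference between classes were not simulated. The simulation is not used as support for the results above. Fetuses are the replicates and no gene-wise count model was fitted.

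Named were the 10 members, the 5 further guidance genes with the largest difference past the threshold in each class contrast, those past it in a genotype contrast, and for each member the 3 genes of most similar pattern over clusters. Guidance genes at an unadjusted p under 0.05, the *Eomes*, *Zic1* and *Lhx6* gates and the co-detection pairs were picked after values were seen. The members and lists were chosen with earlier results of these data known. Alternatives covered the pseudocount, the filter, each library left out, summed UMIs, thinning, doublets, shared barcodes, the clustering, the makeup of classes and marker gates.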

Additional observations from a re-analysis of the deposited data

Results flagged for a closer look

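The genotype difference of *Nrp1* (*Setd5*+/- minus *Setd5*+/+) was 1.02 larger on the log2 scale in excitatory neuron-like than in interneuron-like cells (0.15 and -0.87, adjusted p of the interaction = 0.0744, limma), with each excitatory-to-interneuron difference of the Het libraries above those of both WT libraries. The test of the difference itself had an unadjusted p under 0.05, as it had for *Nrp2* and for 5.49% of all genes, and it did not pass after adjustment over all genes.

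In 3 further cases, each a member in a pair of classes, both *Setd5*+/- libraries lay on one side of both *Setd5*+/+ libraries in one class and on the other side in the second, and the difference was not tested. *Nrp1* was at 0.15 in excitatory neuron-like and -0.61 in intermediate progenitor-like cells, a gap of 0.76, and at -0.26 in radial glia-like cells, a gap of 0.41, where the radial glia-like value was 0.19 with marker gates and -0.10 without WT3. *Robo2* was at 0.18 in excitatory neuron-like and -0.47 in radial glia-like cells, a gap of 0.66. Opposite separations were seen for 1 of 6 members tested in both excitatory and interneuron-like cells, 1 of 5 with intermediate progenitor-like and 2 of 4 with radial glia-like cells, where 5.2%, 4.67% and 4.87% of all genes had them. Genotype and fetal sex cannot be told apart in any of these. The progenitor values rest on 57 *Nrp1* UMIs in intermediate progenitor-like cells and on 75 *Nrp1* and 82 *Robo2* UMIs in radial glia-like cells. Groups of 2 libraries are too small for a check of single outlying samples.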

How the results depend on the processing

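Of 830 values of members under an alternative, 793 kept their direction and side of the threshold, 5 lost the threshold, 21 gained it and 11 turned direction. None of those that turned had passed the test. Class comparisons gave 612 of these values and genotype comparisons 218. The genotype values cover only members with an unadjusted p under 0.05 or with opposite separations between classes. They do not show how often members with genotype differences near 0 turned direction. For excitatory against interneuron-like cells, *Robo1* (-0.16) was 0.30 with marker gates, 0.28 with cluster 0 alone and 0.033 with the excitatory clusters weighted alike, and *Nrp2* (0.56) was -0.0040 with cluster 0 alone. *Unc5d* in interneuron-like against radial glia-like cells (0.02) was -0.10 with a pseudocount of 0.01, -0.14 with summed UMIs, -0.26 at a lower resolution and -0.34 with marker gates, and ran from -0.18 to 0.14 with 1 library left out. *Nrp1* between genotypes in radial glia-like cells (-0.26) was 0.19 with marker gates. The cause was not tested.

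All 5 lost calls were of *Nrp2*: excitatory neuron-like against intermediate progenitor-like cells it was 1.95 (adjusted p = 0.0658) with a pseudocount of 0.01 and 0.51 (adjusted p = 0.148) with marker gates, and excitatory against interneuron-like it passed with marker gates (1.51) and at a lower resolution (0.97), where *Robo1* passed as lower in excitatory neuron-like cells (-0.63). In interneuron-like against radial glia-like cells *Nrp2* did not pass with a pseudocount of 0.01 (1.74), without WT3 (0.74) or at a lower resolution (0.11). *Sema3c* in the same comparison (-0.40) passed under 7 alternatives, at -0.41 to -1.23.

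No member passed between genotypes in all cells, excitatory neuron-like, intermediate progenitor-like or radial glia-like cells under any alternative run. In interneuron-like cells the number of members past the threshold ran from 0 to 2 with 1 library left out: *Nrp2* without WT3 (-2.05, adjusted p = 0.0133), which leaves 1 *Setd5*+/+ library, and without Het5 *Nrp1* (-1.27, adjusted p = 0.00141) and *Nrp2* (-2.74), where 1 *Setd5*+/- library is left, whose spread is taken from the other group, and that library is at 0 for *Nrp2*, so the value is set by the pseudocount. Without Het5 the calls over all genes rose from 10 to 308. For the difference between excitatory and interneuron-like cells the number also ran from 0 to 2 with 1 library left out (*Nrp1* 0.64 to 1.40, *Nrp2* 0.53 to 2.36), and it was 1, *Nrp1*, after thinning (1.24, adjusted p = 0.0288), at a lower resolution (0.86), with the guidance genes kept in the clustering (1.03), with marker gates (0.98) and, in a setting added after seeing the data, without the *Zic1* cells (1.27, adjusted p = 0.0379). Over the 19 alternatives for *Nrp1* its adjusted p ran from 4.70e-08 to 0.913, and 7 passed.

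Calls over all genes ran from 1210 to 2621 (excitatory against interneuron-like), 3468 to 6052 (against radial glia-like), 2473 to 3912 (against intermediate progenitor-like) and 3788 to 6682 (interneuron-like against radial glia-like), and between genotypes from 6 to 41, 5 to 18, 3 to 308, 5 to 15 and 8 to 70 in all, excitatory neuron-like, interneuron-like, intermediate progenitor-like and radial glia-like cells and from 0 to 179 for the difference between classes. The lower resolution gave no intermediate progenitor-like class and so no value there. No paired analysis was possible because the library prefixes carry no replicate number shared between genotypes. With 88 to 234 interneuron-like cells in a library, *Nrp2* gave 0 to 79 UMIs, which limits what a genotype comparison can show.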
